A study of Drosophila melanogaster with 2 samples.

Results

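The genes hh, ptc, smo, ci, en and inv, the core of the Hedgehog pathway of Drosophila melanogaster and the engrailed gene pair, were examined for binding of Glass in whole pupae. They are 6 of 13945 protein-coding genes on the main chromosome arms, chosen by name with earlier results of these data known. A summit was counted for a gene when it lay within the annotated span of the gene extended by 1 kb to each side. The flies carried Glass, a zinc finger protein that photoreceptors need to form, fused to GFP at its C terminus, and chromatin came from pooled male and female pupae aged 24 hour, sheared by sonication. There were 2 biological replicates of this 1 group and no other condition; the labels name neither the promoter of the transgene nor the number of animals. Because whole animals were used, the cells that carried a peak cannot be told apart, and strong binding in few cells cannot be told apart from weak binding in many. Both samples are described as input controls in one free-text field, while the antibody field and the peak lists describe ChIP of Glass, so they were taken as ChIP.

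The deposited peak lists comprise 30000 entries for each replicate, 30000 for the replicates pooled, and an optimal list of 4809 peaks that passed the authors' reproducibility threshold. The signal value is the authors' own value for each peak and ranks peaks within 1 list. Its median in the optimal list was 200.4. Pooled entries ranked 1 to 4809 made up the optimal list, and weaker ones lay outside it. The lowest −log10 q was 0.295 in the pooled list, 0.33 in replicate 1 and 0.278 in replicate 2, so these lists include background. In dm6 coordinates, hh (FBgn0004644) lies on chromosome 3R from 23128169 to 23141906 on the minus strand, and ptc (FBgn0003892) on 2R from 8649649 to 8665223 on the plus strand. The gene smo (FBgn0003444) lies on 2L from 277582 to 282167 on the plus strand, and ci (FBgn0004859) on 4 from 47710 to 57041 on the minus strand. The neighbours en (FBgn0000577) and inv (FBgn0001269) lie on 2R, en from 11524006 to 11528210 on the minus strand and inv from 11474465 to 11509695 on the plus strand.

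In flies the secreted ligand Hedgehog, encoded by hh, binds the membrane protein Patched, encoded by ptc, which otherwise holds the membrane protein Smoothened, encoded by smo, inactive. Active Smoothened leads to an activating form of the zinc finger transcription factor Cubitus interruptus, encoded by ci, and ptc is itself a target that rises where the pathway is active. Engrailed and Invected, the products of en and inv, are related homeodomain proteins that mark posterior compartments, where hh is expressed and ci is repressed. In the developing eye, Hedgehog secreted by photoreceptors behind the morphogenetic furrow drives the furrow forward, and Glass acts in cells behind it.

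Sequences at 4 summits are shown because they are the positions through which smo, ci and hh enter the results, read from the RefSeq genome of the same assembly on the plus strand, with the 21 bases around the summit in capitals. For smo the 174 bases are coding sequence of a neighbour, CG11601. For ci the summit lay in a 5′ untranslated exon, and only 30 bases are shown. Both hh stretches lie outside exons of protein-coding genes. They are the summit next to the hh start site, in the pooled list but not the optimal list, and the strongest optimal upstream summit.
smo chr2L:282974-283147: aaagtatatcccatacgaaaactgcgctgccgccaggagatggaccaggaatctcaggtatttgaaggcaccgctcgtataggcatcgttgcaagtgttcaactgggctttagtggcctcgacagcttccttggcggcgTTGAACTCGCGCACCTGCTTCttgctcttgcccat
ci chr4:56431-56460: aacaTAAATACAATACAGTAACAAGtgcat
hh start site chr3R:23141907-23142189: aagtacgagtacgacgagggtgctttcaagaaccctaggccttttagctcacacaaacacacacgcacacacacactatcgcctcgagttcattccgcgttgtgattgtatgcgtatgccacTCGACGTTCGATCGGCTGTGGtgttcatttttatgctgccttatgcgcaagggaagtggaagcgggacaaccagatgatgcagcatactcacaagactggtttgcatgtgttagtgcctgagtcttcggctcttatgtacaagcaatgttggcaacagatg
hh upstream chr3R:23147628-23147927: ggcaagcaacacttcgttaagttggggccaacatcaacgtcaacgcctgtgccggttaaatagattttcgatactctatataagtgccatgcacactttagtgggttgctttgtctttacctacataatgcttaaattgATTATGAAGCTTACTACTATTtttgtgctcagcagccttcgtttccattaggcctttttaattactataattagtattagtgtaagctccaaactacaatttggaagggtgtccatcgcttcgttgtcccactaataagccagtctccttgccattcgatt

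The first question was which of the 6 genes carried a reproducible Glass peak. Of the 6 genes, 4 had at least 1 summit of the optimal list in the extended span. These were ptc with 4, inv with 3, and smo and ci with 1 each, while hh and en had 0. The summit of smo lay 956 bp past its 3′ end, in CG11601. Among all 13945 protein-coding genes 23.1% had at least 1 summit counted in the same way. This share grows with gene length, and the 6 genes were longer than the median gene, 2.17 kb. It was 44.0% of the 1027 genes of 8 to 16 kb, the range of hh (13.7 kb), ptc (15.6 kb) and ci (9.3 kb). It was 30.5% of the 1879 genes of 4 to 8 kb, the range of smo (4.6 kb) and en (4.2 kb), and 55.4% of the 415 genes of 32 to 64 kb, the range of inv (35.2 kb). No test was made of 6 chosen genes, and the count by itself does not set them apart from genes of like length. The 2 genes with 3 or more summits, ptc and inv, belong to the 3.31% of all genes with that many. That share is over genes of any length and was not split by length, so it does not set these long genes apart.

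**Figure D1:**
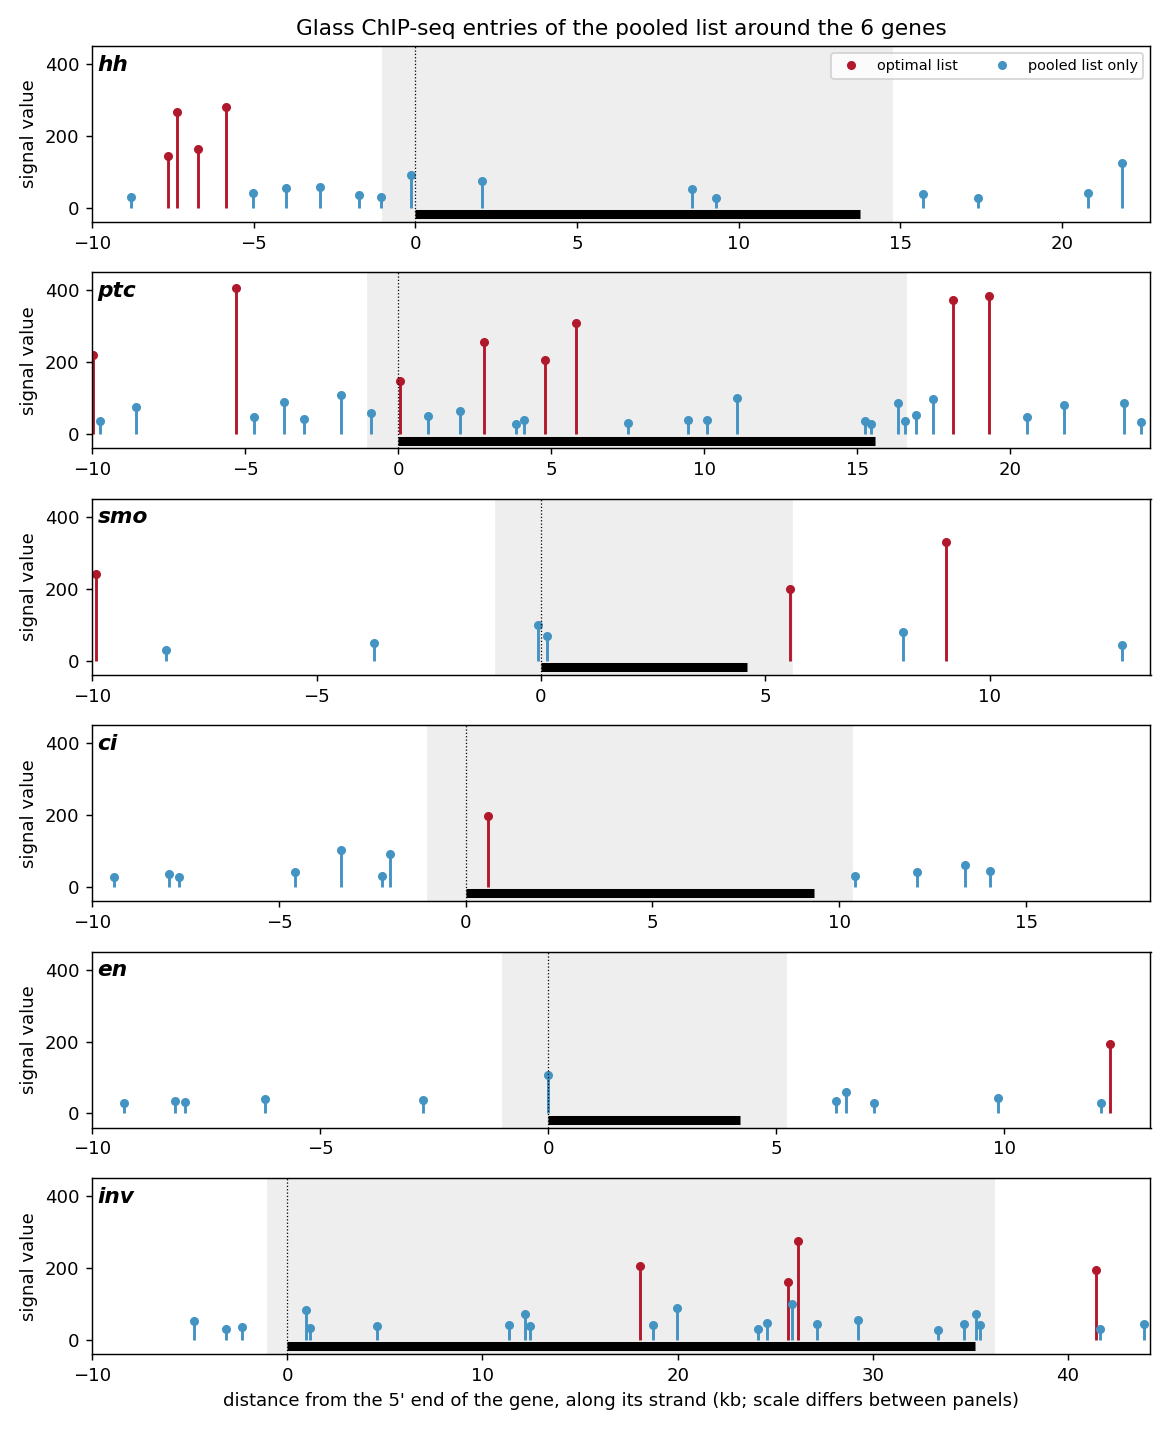
Signal value of every entry of the pooled list (vertical axis, the authors' units) against distance from the 5′ end of each gene along its strand (horizontal axis, kb). Red points are in the optimal list and blue points in the pooled list only, the black bar is the gene and the grey area its span extended by 1 kb. Within the grey area, the optimal summits of ptc and inv sit inside the genes and that of smo lies past its end. Red points outside the grey area are drawn by position and include peaks at neighbouring genes. Those nearest to hh lie 5871 bp or more upstream.

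The 9 optimal peaks had ordinary signal values. Their median signal value was 205.7, against 200.4 for all optimal peaks, and their ranks ran from 1202 to 3807 of 4809. The strongest peak of the 4 genes with a summit had a median of 236.8, against 231.1 for the 3224 genes with one. Of the 9 summits, 6 lay in introns, 2 in 5′ untranslated exons and 1, counted for smo, in coding sequence of CG11601. Among all optimal summits the shares were 54.6%, 12.1% and 1.56%, in that order, and 30.6% lay outside protein-coding genes. The 9 were counted only within gene spans extended by 1 kb, so they and all optimal summits are not like sets. Within 1 kb of a transcription start site (TSS) of any protein-coding gene lay 3 of the 9, against 46.5% of all optimal summits.

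The receptor gene ptc carried the strongest peak of the set. That summit, at 8655458 and 5809 bp downstream of the only annotated TSS, had a signal value of 309.9 and rank 1202 in the optimal list. It had a signal value of 152.8 and rank 1658 in replicate 1, and 156.2 and rank 933 in replicate 2. A second summit, 2785 bp downstream of the TSS, had a signal value of 257.3, with 137.9 in replicate 1 and 113.4 in replicate 2. Another, 4785 bp downstream, had a signal value of 205.7, with 121.1 in replicate 1 and 88.5 in replicate 2. These 3 all lay in the first intron and ranked between 933 and 2646 in both replicate lists. The remaining summit lay 57 bp downstream of the TSS, in the 5′ untranslated exon, and was the weakest of the 9, with a signal value of 148.7 and rank 3807. Its rank differed between replicates: the matching entry ranked 7847 in replicate 1 (signal value 51.2) and 2037 in replicate 2 (102.8, with its summit 152 bp away). It was the only one of the 9 without a match within 200 bp in the 4809 strongest entries of replicate 1.

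For smo, which encodes the signal transducer released by Patched, the single counted summit was not in the gene. It lay at 283123, 956 bp beyond the 3′ end of smo and 72 bp from a TSS of CG11601, in the coding sequence shown above. Its signal value was 197.9 and its rank 2455, with rank 3654 in replicate 1 and 1833 in replicate 2. At the TSS of smo itself the strongest pooled entry, 62 bp upstream, had a signal value of 99.5 and rank 6886, outside the optimal list. That entry lay in a 5′ untranslated exon of CG17078, so it is not assigned to either gene by position alone.

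For ci, the gene of the pathway's transcription factor, the optimal summit at 56445 lay 114 bp upstream of the internal TSS and 596 bp downstream of the most 5′ one, in a 5′ untranslated exon. Its signal value was 197.3 and its rank 2466, with rank 3789 in replicate 1 and 1992 in replicate 2. It was also the only entry of the pooled list in the extended span of ci, and 1 of the 16 optimal peaks on chromosome 4.

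The invected gene carried 3 optimal summits in its first intron and none at its TSSs. They lay 16808, 24418 and 24916 bp downstream of the nearer TSS. The most distal one, at 11500624, was the strongest, with a signal value of 275.8 and rank 1461, and it had 138.7 (rank 1939) in replicate 1 and 145.7 (rank 1064) in replicate 2. The summit at 11500126, 498 bp away from it, had a signal value of 161.4, with 134.1 in replicate 1 and 78.4 in replicate 2. The summit at 11492516 had a signal value of 205.7, with 141.3 in replicate 1 and 72.0 in replicate 2. In rank the last pair stood higher in replicate 1 (2033 and 1872) than in replicate 2 (3281 and 3740), unlike the strongest one.

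Neither hh nor en had an optimal summit within the extended span, but each had an entry at its TSS in the pooled list and in each replicate list. The engrailed entry lay 16 bp upstream of the TSS, with a pooled signal value of 105.6 and rank 6350. In replicate 2 it had a signal value of 64.3 and rank 4515, inside the 4809 strongest, and in replicate 1 it had 44.6 and rank 9345. With the strongest 4809 entries of replicate 2 in place of the optimal list, en was therefore the fifth gene with a summit (5 of 6, against 23.1% of all genes), whereas in replicate 1 the count was 4 of 6, against 22.8%. The hedgehog entry lay 133 bp upstream of the TSS, with a pooled signal value of 91.2 and rank 7722, and the replicates stood the other way round: 62.6 and rank 5956 in replicate 1, against 26.3 and rank 16183 in replicate 2. The replicate 1 entry had a −log10 q of 4.11, the ceiling that 6449 of the 30000 entries of that list share, and the replicate 2 entry had 0.955. The rank of the hh start site thus differed widely between the replicates.

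All 6 genes had a pooled entry within 1 kb of a TSS of their own, against 55.1% of all genes, and 2 of 6, ptc and ci, had an optimal summit there, against 17.0%. All 6 also had a pooled entry somewhere in the extended span, against 62.0%. These shares are over genes of any length and were not split by length, and the pooled list includes background. Besides those given above, the strongest TSS entry of inv had a signal value of 82.9 and rank 8733, with rank 8696 in replicate 1 and 9611 in replicate 2. The pooled entries were unevenly spread: ptc had 17 (0.97 per kb of extended span) and inv 20 (0.54), while hh had 4 (0.25), smo 3 (0.46), en 1 (0.16) and ci 1 (0.09). The median over all protein-coding genes was 0.231 per kb. In the replicate lists the same spans held 7 and 6 entries at hh, 17 and 16 at ptc, 2 and 5 at smo, 5 and 4 at ci, 1 and 1 at en, and 18 and 20 at inv, in replicates 1 and 2 in that order.

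The next question was whether the replicates found the same summits at these genes. Of the 9 optimal summits, 8 were matched within 200 bp by the 4809 strongest entries of both replicates, against 63.3% of all optimal summits. In replicate 2 alone all 9 did, against 78.7%, and in replicate 1 alone 8, against 83.3%. The exception was the ptc start site. The optimal list was made from both replicates, so this agreement is in part built in, and the 2 replicates are too few for a test. Summit positions were close in places: at the strongest ptc summit the replicate summits lay 3 and 1 bp from the pooled one, and at ci 3 and 18 bp. Widths were less uniform, with 5 of the 9 pooled peaks at the commonest width of 390 bp and the other four at 123 and 201 bp in ptc and 215 and 241 bp in inv.

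**Figure D2:**
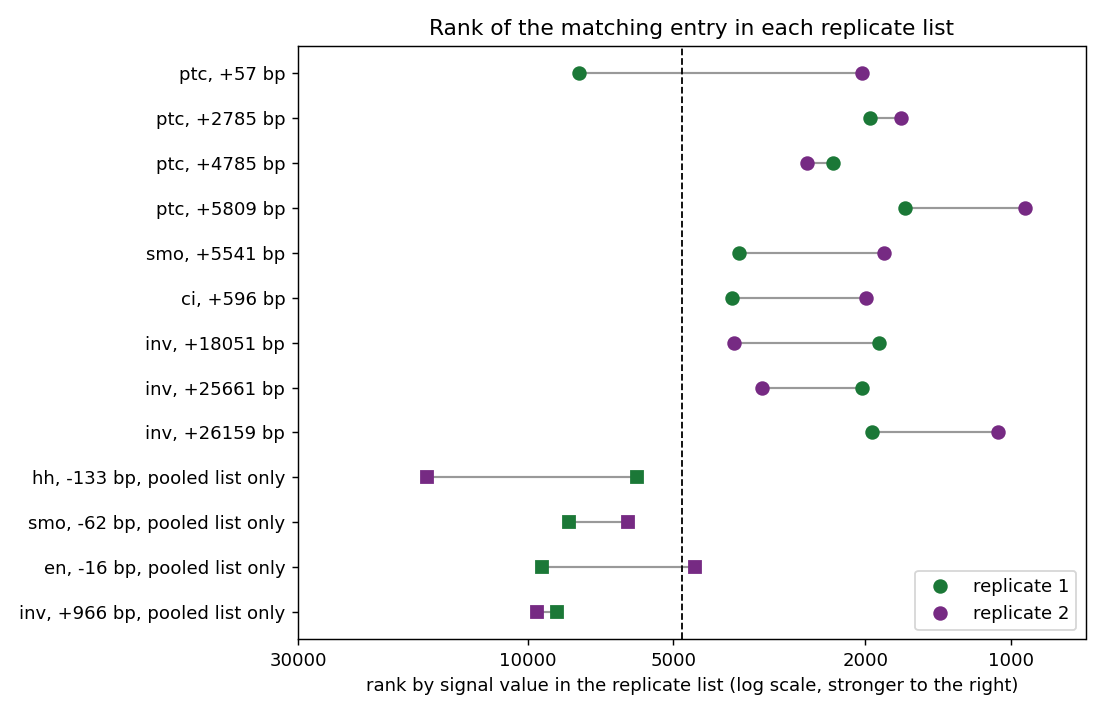
Rank of the strongest entry within 200 bp in the list of replicate 1 (green) and replicate 2 (purple), on a log axis with stronger ranks to the right, for the 9 optimal summits (circles) and the strongest pooled-only entry at the start sites of hh, smo, en and inv (squares); names give the distance from the 5′ end of the gene. The dashed line is rank 4809. The circle pairs lie right of it except the ptc start site in replicate 1, and of the squares only en in replicate 2 does.

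Around hh and en the optimal summits lay beyond the extended span. A group of 4 stood upstream of hh, at 5871, 6723, 7385 and 7652 bp from its TSS. They lay outside protein-coding genes, and the nearest TSS of such a gene was that of hh. Their signal values were 281.1, 163.2, 265.6 and 144.6. The first ranked 1414 in the optimal list, 1413 in replicate 1 and 1732 in replicate 2, a closer agreement than at the hh start site. The second ranked 3989 and 2825 in replicates 1 and 2, and the next ranked 1067 in replicate 1 and lay 237 bp from the nearest replicate 2 summit, which ranked 1961. That replicate 2 summit lay 30 bp from the fourth, which ranked 10106 in replicate 1, so that replicate 2 had 1 entry where the pooled list had a pair. For en, 3 optimal summits were nearest to its TSS. The one between en and inv, 8107 bp beyond the 3′ end of en and 6204 bp beyond that of inv, had a signal value of 193.6 and ranked 2840 in replicate 1 and 2638 in replicate 2. Those 13103 and 22980 bp upstream of en had 128.3 and 127.1 and were near the bottom of the optimal list, at ranks 4735 and 4804.

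Strong peaks also lay just outside ptc and smo. The nearest to ptc past its 3′ end were at 2561 and 3729 bp, with signal values of 374.5 and 383.3, both in introns of Acsl. Another lay 5303 bp upstream of ptc, outside protein-coding genes, with 407.4. The last was nearest to the TSS of ptc, ranked 653 in replicate 1 and 963 in replicate 2, and was stronger than any peak within the extended span. For smo the next was 4445 bp past its end, 81 bp from a TSS of CG3625, with 329.7. For ci the next was 10142 bp upstream, 24 bp from a TSS of the ribosomal protein gene RpS3A, with 196.0. When each summit was given to the gene with the nearest TSS, the 6 genes had 16 summits: ptc had 5, hh 4, en and inv 3 each, ci 1 and smo 0. Then 5 of the 6 genes had a summit, against 18.8% of all protein-coding genes. This rule was chosen after seeing the data. All 4 summits of hh and all 3 of en lay outside the extended span. How far a gene reaches under the rule depends on the distance to its neighbours, so 18.8% is not a like share.

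Sequence around the summits was searched on both strands for 4 short motifs in 300 bases. CCACCC, the core of the site bound by Ci, was at 0 of the 9 optimal summits, against 10.1% of all optimal summits. TAATTA, a homeodomain site, was also at 0 of 9, against 14.5%. GAGAG, of the GAGA factor, was at 3 of 9 (the ptc start site, the strongest ptc summit and ci), against 46.3%. GCCAT, the core of the site of Pleiohomeotic, which recruits Polycomb proteins, was at 5 of 9 (a pair in ptc, ci, and a pair in inv), against 40.0%. The stretch upstream of hh printed above held GCCAT at 2 positions and TAATTA at 2. Base composition was near that of all peaks, with a median of 42.0% GC, against 41.3% for all optimal summits, and a range from 33.0% to 51.0%. The letters of a site say nothing about which factor occupied it, and no recognition sequence of Glass itself was searched.

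Finally, 31 other genes of the pathway were counted by role. Of these, 18 (58.1%) had an optimal summit in the extended span, against 23.1% of all protein-coding genes. Spans of the 31 ran from 1.2 to 65.0 kb with a median of 8.2 kb, so length differs from the background here too. By length, the share of all genes rose from 15.3% below 4 kb to 30.5% at 4 to 8 kb, 44.0% at 8 to 16 kb and 59.0% above 64 kb. The 23.1% is therefore not a like share for these genes, and the part of length in the count was not tested. The list was also chosen with earlier results of these data known, so no test was made of it. Counting summits no farther than 1 kb from the gene's own TSS left 10, against 17.0% of all protein-coding genes. The median strongest signal of the 18 was 301.4.

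Among genes for release and spread of the ligand, 5 of 8 had a summit. The highest were dlp, a glypican (8 summits, strongest signal value 518.0), shf, which encodes a secreted factor needed for Hedgehog to spread (3 summits, 416.2), and ttv, a heparan sulphate polymerase (275.4). They were followed by the glypican dally, with 4 summits and a signal value of 210.3 at 52 bp from its TSS; the matching entries ranked 3658 in replicate 1 and 1245 in replicate 2. Of the co-receptor pair, boi had 1 summit with a signal value of 327.4 and ihog had 0.

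Among genes of intracellular transduction, 8 of 14 had a summit. Their median strongest signal value, 435.7, was the highest of the 4 roles, but these medians rest on only 1 to 8 genes. It also includes summits nearest to TSSs of other genes, given below. The strongest of the list was at Gprk2, a kinase that acts on Smoothened, with a signal value of 1720 and ranks of 22 and 27 in replicates 1 and 2. Its summit lay 587 bp from a TSS of Gprk2 but 82 bp from one of PNPase, in a 5′ untranslated exon of that gene. The gene rdx, an adaptor in the breakdown of Ci and itself a pathway target, had 11 summits and a highest signal value of 695.6. It was followed by sgg, the GSK3 kinase, with 4 summits (664.9), and nej, a co-activator of Ci, with 4 (483.4). The genes fu, a kinase, and Su(fu), an inhibitor of Ci, had 0. The counted summits of cos, a kinesin-like scaffold, and Cul3 were nearest to TSSs of other genes, Dscam1 and yuri, so that with Gprk2 this was so for 3 of the 18.

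Of 7 target genes, 4 had a summit. The growth factor gene dpp had the strongest, with a signal value of 1049 and ranks of 79 and 97 in replicates 1 and 2. The others had modest signal values: hry, the hairy gene, had 180.9 at 3 bp from its TSS, caup 177.1, and wg, the Wingless ligand, 176.7 at 170 bp from its TSS. The proneural gene ato, switched on at the furrow, had 0, as did kn and ara.

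**Figure D3:**
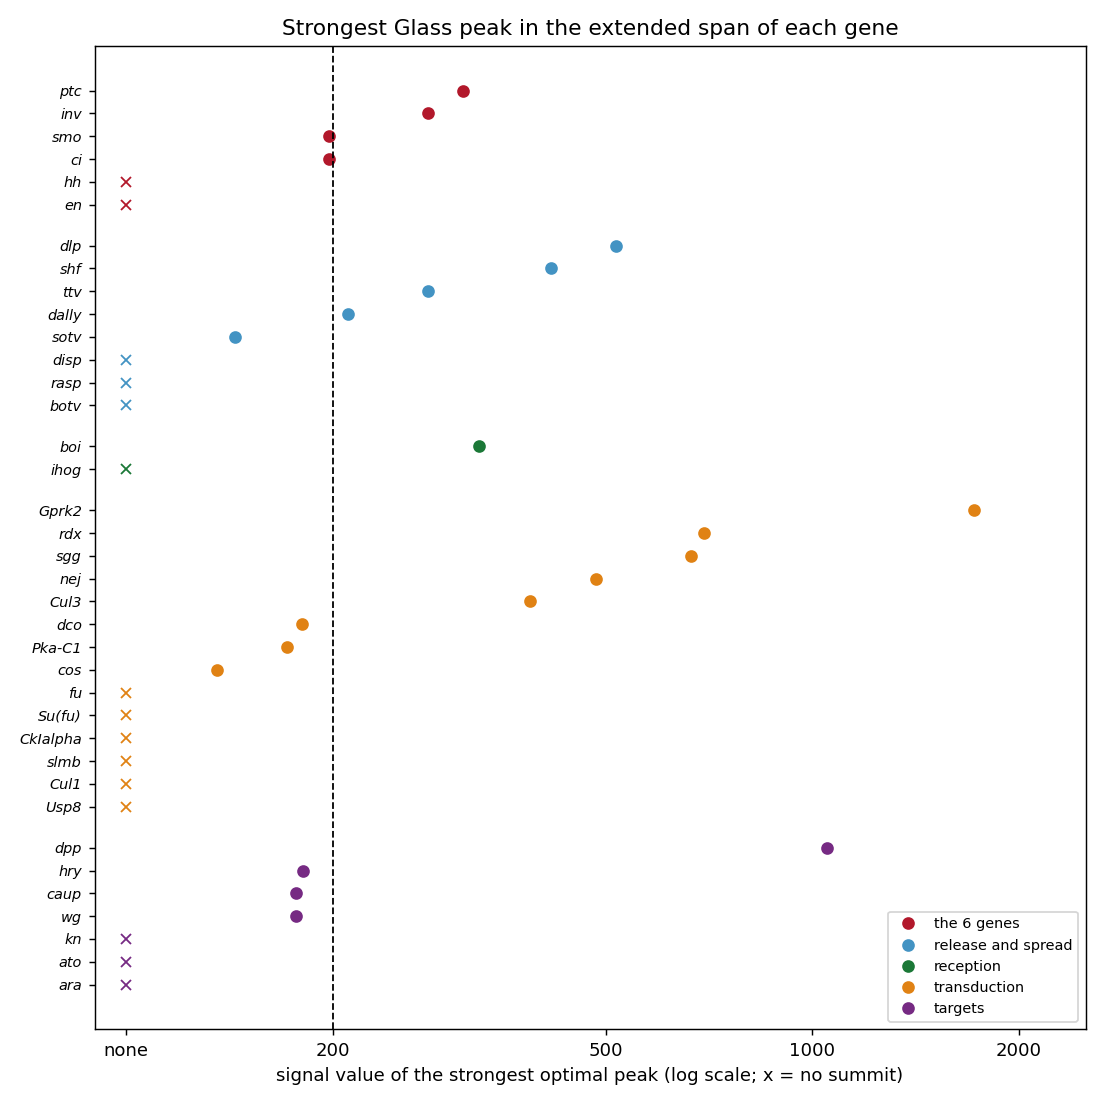
Signal value of the strongest optimal peak in the extended span (log axis, the authors' units) for the 6 genes and for 31 other pathway genes by role; a cross marks a gene with no optimal summit, and the dashed line is the median of all optimal peaks, 200.4. The 6 genes reach at most 309.9, while Gprk2 (1720) and dpp (1049) stand highest. The Gprk2 summit lies 82 bp from a TSS of PNPase, and those of cos and Cul3 are also nearest to TSSs of other genes. The same holds for smo, whose summit lies 72 bp from a TSS of CG11601.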

How the data were processed

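Glass ChIP-seq of whole pupae was deposited as peak lists for dm6. The authors derived each replicate list from that replicate's alignment and a control alignment, per the deposited text files, the pooled list from both alignments and the control, and the optimal list from those 3 lists. The signal value and the −log10 q value of each entry are the authors' own, as deposited, and the offset of the summit is the authors' too; the p-value column is empty. The depth is unknown and no interval covers counting, since aligner, peak caller and read numbers are not given in the sources used here. Signal values were not scaled between lists. Those of different lists are printed side by side, but differences between replicates are read from the ranks.

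Genes and TSSs came from Ensembl release 115 (BDGP6.54), the same assembly as the genome sequence from NCBI, and coordinates are 1-based. Summits were counted in spans extended by 1 kb with Python 3.11.15, pandas 2.3.3 and numpy 2.4.6, and drawn with matplotlib 3.10.9. The strongest entry within 200 bp was taken as the match in a replicate. Counting was checked on simulated summits. The genes, the pathway list and the motifs were chosen with earlier results of these data known, so there is no test of them; hry was listed under its older symbol h. All 6 genes are named with each optimal summit, and up to 4 pathway genes per role with the highest signal; others are named as having 0 summits, or for a summit nearest to another gene, after values were seen. Nothing states whether the replicates came from separate animals beyond their label as biological replicates.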

Additional observations from a re-analysis of the deposited data

How the results depend on the processing

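The share of all genes with a summit moves with the setting and stands beside each count here; it was 23.1% for the main counts of 4 genes, 9 summits and 18 other pathway genes. The count of genes and summits was 3 and 8 in a span without extension (12.8% of all genes), 4 and 12 in a span extended by 5 kb (41.3%) and 4 and 9 by any overlap of the peak interval (24.1%). It was 4 and 9 with all pooled entries at the highest −log10 q (28.2%), an alternative chosen after seeing the data. In the same order of settings, the other pathway genes with a summit numbered 13, 22, 18 and 20. When 1 replicate was left out, the genes numbered 4 to 5, the summits 8 to 10 and the other pathway genes 16 to 20 (22.8% and 23.1%). Only summits within 1 kb of a TSS gave 2 genes, ptc and ci, with 2 summits, and 10 pathway genes (17.0%). The 2404 strongest optimal peaks gave 2 genes, ptc and inv, with 5 summits, and 11 pathway genes (13.6%). Giving each summit to the gene of the nearest TSS, also chosen after seeing the data, gave 16 summits at 5 genes, without smo (18.8%). The other pathway genes then numbered 15. Of the settings run, this rule alone gave hh a summit. Agreement of the replicates was 8 of 9 with summits within 100 bp (59.3% of all optimal peaks) or 500 bp (66.7%) or by overlapping intervals (65.1%), and 9 of 9 with all entries (97.3%). In 100 bases around the summit GAGAG was at 1 summit (17.8% of all) and GCCAT at 1 (14.7%); CCACCC and TAATTA were at 0 in each window. No paired analysis was possible because there is 1 group. Depth, unknown here, limits how firmly the weak entries at hh and en can be read.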
